A study of Mus musculus with 6 samples.

Results

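The kinesin motor genes were examined in the prefrontal cortex, the front part of the cortex, of aged male C57BL/6 wild type mice (18 months old per the age label, while the sample titles carry 17M). The 3 PND samples came from animals operated on by exploratory laparotomy, in which the abdomen is opened and its organs are inspected, under isoflurane, as a model for postoperative neurocognitive disorder. The 3 CON samples came from animals that had neither this anesthesia nor the operation, so the effects of these treatments cannot be told apart. Per the study, the samples of a group came from 3 mice chosen at random, and isoflurane was also given to the mice when tissue was taken. The members were the protein-coding genes whose symbol is Kif or Kifc followed by a number, with at most 1 letter after a Kif number, and 38 of the 21006 genes in the files met this rule. Kif2b, Kif12 and Kif18b also meet it and were not analysed here. Of the 38 genes, 16 were placed by role among kinesins that carry cargo in neurons, 11 among kinesins of cell division and 11 in neither class. Values are FPKM, fragments scaled by exon length and by library size, so levels of different genes can be compared per length. Low FPKM values rise in steps of 1 fragment, which put the effective depth at 7179375 to 9383120 fragments per sample.

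Kinesins are motor proteins that use ATP to move along microtubules, most of them towards the plus end. In axons the plus ends point away from the cell body, so these motors carry mitochondria, synaptic vesicle precursors and membrane proteins outwards, while cytoplasmic dynein carries cargo back. Other kinesins build the mitotic spindle, align chromosomes or complete cytokinesis, and they are made mainly in dividing cells. Several of the latter, among them Kif4, Kif11 and Kif20b, are also known to act on the microtubules of neurons that no longer divide.

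The cargo-carrying kinesins made up nearly all of the kinesin mRNA. They held 96.7% ± 0.265 of the summed kinesin FPKM in PND and 96.5% ± 0.671 in CON (SD, n = 3), against 0.307% ± 0.0136 and 0.310% ± 0.0542 for the mitotic kinesins. All 16 cargo-carrying kinesins had a mean of at least 2.89 FPKM, while the highest mitotic kinesin, Kif23, had a mean of 0.803 FPKM. Of the 32 genes high enough to be tested, 0 passed the study's cut-off, an absolute log2 fold change above 1 with an unadjusted p below 0.05, beside 1.33% of all genes tested. The tissue label could be compared with the neuron markers, which summed to 1134 to 1222 FPKM in PND and 1157 to 1232 FPKM in CON. Ttr, a defining choroid plexus mRNA, was at most 0.208 FPKM in any sample. No marker of another cell type passed the cut-off, and those with an unadjusted p below 0.05 in limma are given beside the counts of their lists. Of 8 astrocyte markers, 4 were higher and 4 lower in PND, with Gfap at 21.8 ± 3.65 FPKM against 13.6 ± 1.10 in CON (unadjusted p 0.00294) and Aqp4 at 24.0 ± 2.14 against 30.8 ± 3.85 (unadjusted p 0.0275). Of 8 microglia markers, 5 were higher and 3 lower, while P2ry12 was at 5.49 ± 1.36 against 9.27 ± 1.50 FPKM (unadjusted p 0.00767). Of 8 oligodendrocyte markers, 2 were higher and 6 lower, with Opalin at 3.39 ± 1.10 against 5.86 ± 1.53 FPKM (unadjusted p 0.0291). Of 7 endothelial markers, 4 were higher and 3 lower, with Ly6c1 at 5.79 ± 1.43 against 3.23 ± 0.117 FPKM (unadjusted p 0.00568). Of the 4 tested choroid plexus markers, 3 were higher and 1 lower, with Clic6 at 1.84 ± 0.319 against 1.05 ± 0.399 FPKM (unadjusted p 0.0319). The summed level of each of these lists overlapped between the groups. The part of these cells in the kinesin values was not tested.

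**Figure D1:**
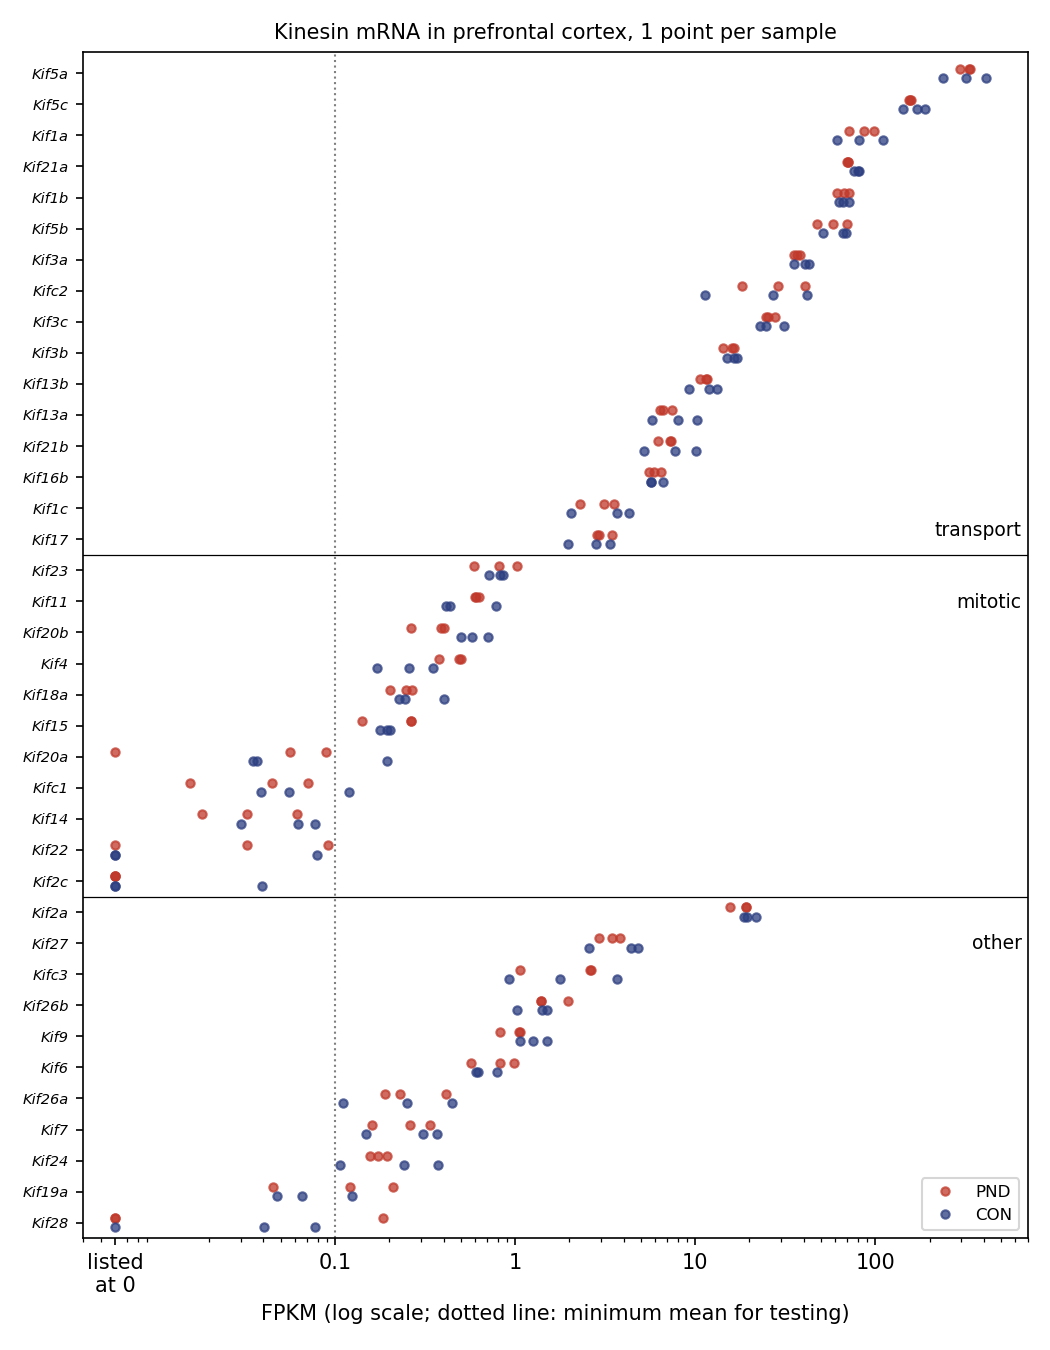
FPKM of the 38 kinesin genes on a log scale, 1 point per sample, PND in red and CON in blue, with genes ordered by class and mean. The transport kinesins lie between 1.98 FPKM (Kif17) and 412 FPKM (Kif5a), and the mitotic kinesins lie at or below 1.02 FPKM.

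The Kif5 genes encode the heavy chains of conventional kinesin, the motor of mitochondria and of many axonal vesicles, and the most abundant kinesin mRNA was Kif5a (ENSMUSG00000074657, chromosome 10, 127225696 to 127263348 in GRCm38). Kif5a was at 332, 296 and 336 FPKM in PND replicates 1 to 3 and at 237, 412 and 321 FPKM in CON replicates 1 to 3. The PND values lay inside the range of the CON values. Its log2 fold change was 0.03 (SE 0.19, limma, unadjusted p 0.895), with a 95% interval from 0.743-fold to 1.40-fold. Kif5c followed at 156 ± 1.59 FPKM in PND against 167 ± 23.8 in CON, and Kif5b, the form made in most cell types, had 58.5 ± 11.1 and 62.1 ± 9.25 FPKM. The Kif5 genes together held 57.5% ± 1.52 of the kinesin FPKM in PND and 57.2% ± 1.11 in CON.

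Kif1a and Kif1b, the motors of synaptic vesicle precursors, averaged 85.5 ± 13.7 and 66.6 ± 4.81 FPKM in PND. In CON they had 84.3 ± 24.4 and 66.7 ± 4.34 FPKM. The difference of Kif1b was bounded between 0.844-fold and 1.18-fold, and that of Kif1a between 0.723-fold and 1.48-fold (95% intervals, limma). Kif1c had 2.97 ± 0.633 and 3.32 ± 1.16 FPKM in PND and CON. Kif3a, Kif3b and Kif3c, subunits of the heterotrimeric kinesin of axons and cilia, had 36.7 ± 1.45, 15.5 ± 1.18 and 26.0 ± 1.63 FPKM in PND. In CON they had 39.6 ± 3.81, 16.1 ± 1.02 and 26.3 ± 4.41 FPKM. Kif3c shares 2617 exon bases with an antisense gene, and whether the counting used strand is not stated. Kif17, a motor of NMDA receptor vesicles in dendrites, had 3.07 ± 0.325 against 2.70 ± 0.688 FPKM. Kif13a, Kif13b and Kif16b, which move receptors and endosomes, had 6.82 ± 0.584, 11.2 ± 0.573 and 5.97 ± 0.477 FPKM in PND. The same genes had 7.97 ± 2.22, 11.5 ± 2.07 and 5.99 ± 0.540 FPKM in CON.

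The cargo-carrying class was then compared between the groups as a whole. Of its 16 genes, 0 had an unadjusted p below 0.05 in limma, the lowest being 0.0836, and 0 passed the cut-off. Over the 18185 genes tested, 3.13% had an unadjusted p below 0.05, 1.33% passed the cut-off (0.841% higher and 0.484% lower in PND, as 153 and 88 genes, against 124 and 116 with quantile normalization) and 0.011% (2 genes) had an adjusted p below 0.05. The log2 fold changes of the class ran from -0.19 (Kif13a) to 0.24 (Kifc2), with 4 above 0 and 12 below and a median of -0.03, beside a median of 0.01 over all genes tested. This median was -0.17 without CON replicate 1, 0.02 without PND replicate 2 and 0.03 without CON replicate 2, so its sign rested on single samples. In 15 of the 16 genes the 95% interval lay within a 2-fold change in either direction, beside 11180 of all 18185 genes tested. The exception was Kifc2, a motor of neurons that moves towards the minus end, whose interval ran from 0.537-fold to 2.61-fold. Among the genes in neither class, Kif2a, which shortens microtubules and limits axon branching, was at 18.0 ± 2.08 FPKM in PND and 19.9 ± 1.66 FPKM in CON. It shares 1229 exon bases with Dimt1 on the opposite strand.

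**Figure D2:**
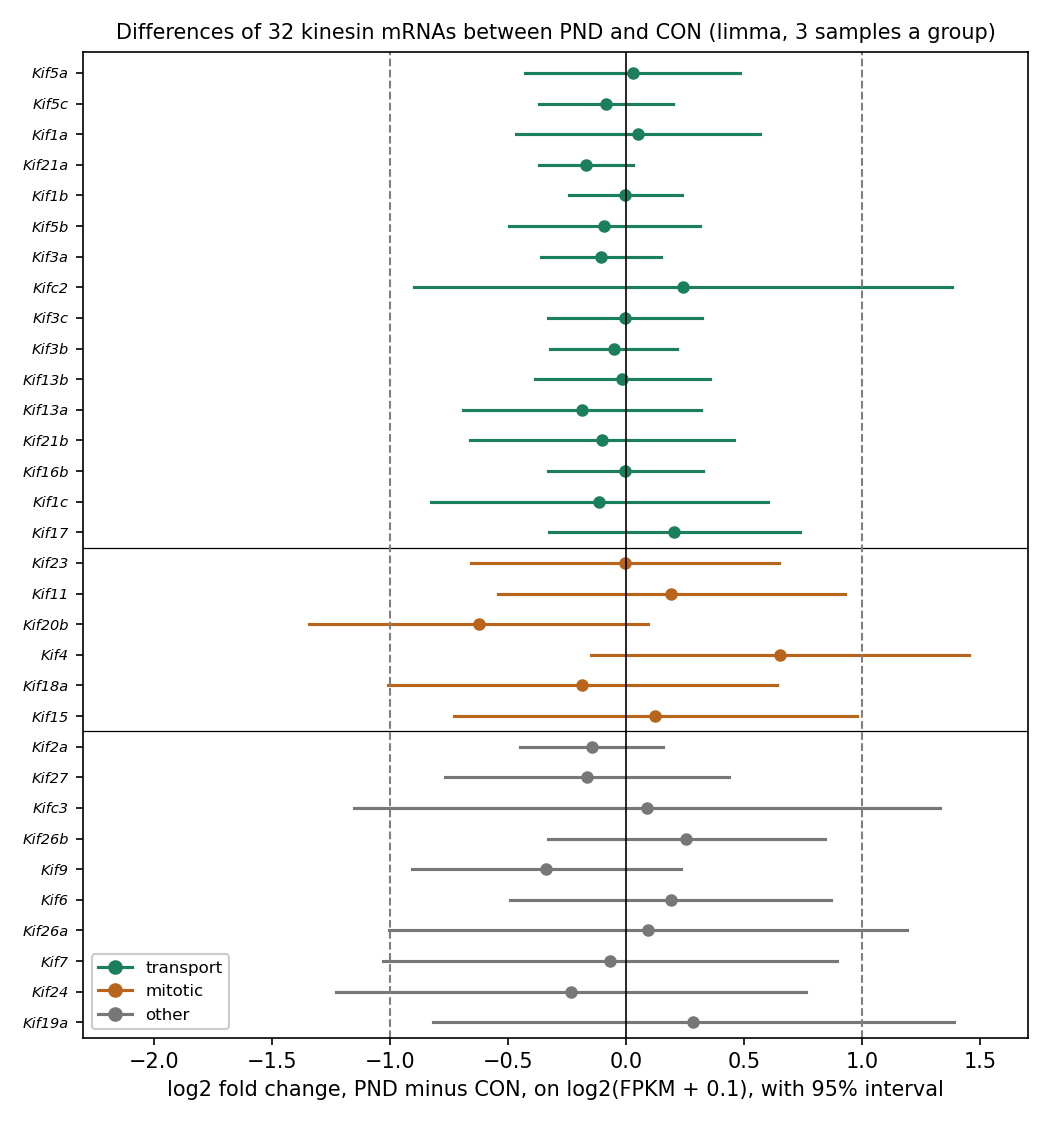
Log2 fold change of PND against CON with its 95% interval (limma, n = 3 a group) for the 32 kinesins tested, with dashed lines at -1 and 1. All intervals include 0, and those of the low mitotic and ciliary genes are wider than those of most transport kinesins.

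Of the 38 members, 32 had a mean of at least 0.1 FPKM and were tested, and in 3 of them the groups of 3 did not overlap. This is 9.38% of the members tested, beside 7.66% of all genes tested (3.78% with all PND samples above CON and 3.88% below). They were Kif21a and Kif20b, lower in all PND samples, and Kif4, higher in all PND samples, and none of these passed the test. Kif21a (ENSMUSG00000022629, chromosome 15, 90933276 to 91049948), a neuronal kinesin that also limits microtubule growth, was at 69.5, 70.8 and 70.2 FPKM in PND and at 76.0, 79.6 and 81.4 FPKM in CON. The PND samples lay close together (SD 0.653 FPKM) and below every CON sample. The log2 fold change was -0.17 (SE 0.09, limma, unadjusted p 0.0836, adjusted p 0.9999). This SE is larger than the spread of the gene alone would give, since limma also uses genes with like levels. Its relative Kif21b was at 6.92 ± 0.607 FPKM in PND and 7.68 ± 2.46 FPKM in CON.

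Kif20b (ENSMUSG00000024795, chromosome 19, 34922361 to 34975745), which acts in cytokinesis, was at 0.264, 0.387 and 0.402 FPKM in PND and at 0.576, 0.706 and 0.50 FPKM in CON. These levels corresponded to an estimated 13, 17 and 21 fragments in PND and 24, 32 and 20 in CON, so the fragment numbers themselves overlapped. Its log2 fold change was -0.63 (SE 0.31, limma, unadjusted p 0.0786, adjusted p 0.9999). Kif4 (ENSMUSG00000034311, chromosome X, 100625737 to 100727214), a motor of chromosome arms and the spindle midzone, was at 0.375, 0.486 and 0.503 FPKM in PND and at 0.350, 0.257 and 0.170 FPKM in CON. The estimate was 19, 22 and 27 fragments in PND and 15, 12 and 7 in CON, and the log2 fold change was 0.65 (SE 0.34, limma, unadjusted p 0.0973, adjusted p 0.9999). Kif4 shares 832 exon bases with Pdzd11 on the opposite strand, which was at 3.98 to 5.20 FPKM in PND and 3.39 to 4.72 FPKM in CON. The part of Pdzd11 reads in the Kif4 values was not tested. Across the alternative fits the log2 fold change ranged from -0.75 to -0.24 for Kif20b and from 0.21 to 0.83 for Kif4.

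**Figure D3:**
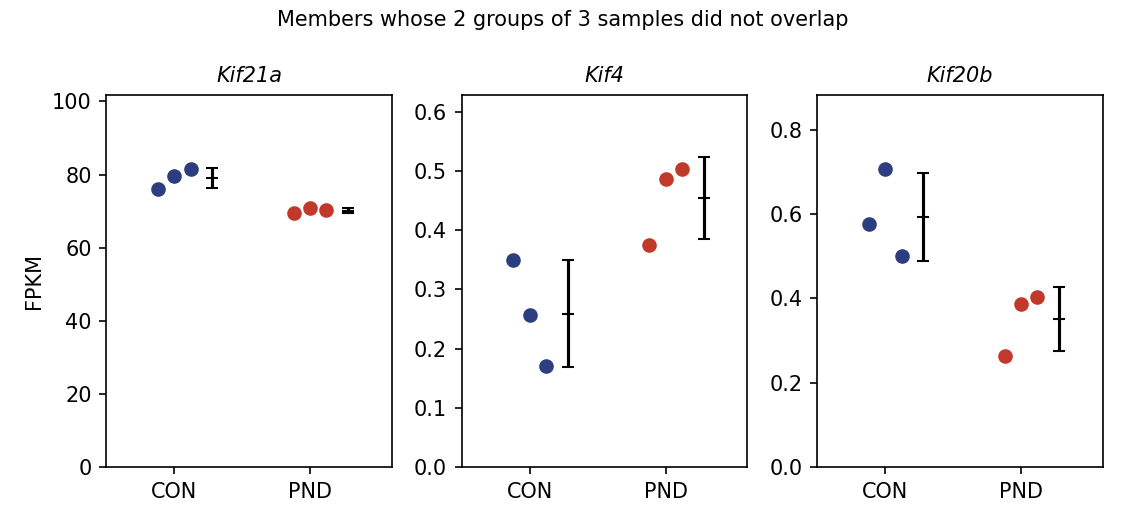
FPKM of Kif21a, Kif4 and Kif20b in the 3 CON and 3 PND samples (points), with the mean and SD beside them (black bars), on axes that start at 0. Kif21a and Kif20b lie lower in all 3 PND samples and Kif4 lies higher, where the nearest PND and CON samples are at 0.375 and 0.350 FPKM.

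The mitotic and cargo-carrying kinesins also differed in their promoters, a feature that the choice of members did not use. RefSeq promoters (GRCm38.p6, 250 bases before to 50 after a start site) were matched by symbol for 10 of the 11 mitotic genes and 11 of the 16 cargo-carrying genes. The hexamer TTTGAA, which forms the core of the cell cycle homology region of many genes expressed in G2 phase and mitosis, was searched on both strands. It was present in 9 of the 10 mitotic promoters (90.0%) and in 1 of the 13 promoters of the cargo-carrying genes (7.69%), beside 17.9% of all 32851 promoters. CCAAT, the site of the factor NF-Y, was present in 6 of the 10 mitotic (60.0%) and 4 of the 13 cargo-carrying promoters (30.8%), beside 37.4% of all promoters. The median GC content was 61.5% in the mitotic, 69.3% in the cargo-carrying and 52.7% in all promoters. The part of base composition in the shares of both motifs was not tested. The motifs were searched apart, so matches may overlap, and a match is a description of the sequence. The promoters of the 3 genes whose groups did not overlap are given in full, with TTTGAA and CCAAT (or their reverse complements TTCAAA and ATTGG) in capitals, since they show the hexamer alone, both motifs and neither.
Kif20b (chr19:34922108-34922407, plus strand): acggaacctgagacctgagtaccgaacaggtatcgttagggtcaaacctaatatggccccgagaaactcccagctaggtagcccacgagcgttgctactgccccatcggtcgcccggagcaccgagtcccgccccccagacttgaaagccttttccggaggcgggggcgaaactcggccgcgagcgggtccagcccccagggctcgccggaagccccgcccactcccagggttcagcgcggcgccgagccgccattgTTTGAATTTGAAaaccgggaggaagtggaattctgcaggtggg
Kif4 (chrX:100625815-100626114, plus strand): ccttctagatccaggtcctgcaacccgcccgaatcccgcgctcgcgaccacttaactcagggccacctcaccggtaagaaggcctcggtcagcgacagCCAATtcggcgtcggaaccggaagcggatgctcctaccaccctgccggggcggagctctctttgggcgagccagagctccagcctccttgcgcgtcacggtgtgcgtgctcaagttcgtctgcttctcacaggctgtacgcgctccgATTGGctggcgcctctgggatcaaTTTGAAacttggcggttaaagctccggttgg
Kif21a (chr15:91049902-91050201, minus strand): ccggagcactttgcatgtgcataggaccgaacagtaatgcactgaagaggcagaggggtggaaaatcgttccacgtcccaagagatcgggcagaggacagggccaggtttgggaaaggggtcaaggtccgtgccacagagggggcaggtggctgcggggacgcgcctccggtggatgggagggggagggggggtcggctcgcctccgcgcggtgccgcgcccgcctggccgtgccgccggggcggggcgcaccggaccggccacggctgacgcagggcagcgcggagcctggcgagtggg

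Kif20b held 2 adjoining copies of the hexamer, at bases 8 and 14, where base 1 is the start site. Kif4 held 1 at base 20 and CCAAT or its complement at bases -152 and -5. The other mitotic promoters with a match are shown as 30 bases around the match nearest to the start site, in the direction of the gene, with the hexamer on either strand in capitals, so that the neighbouring letters can be compared.
Kif11 (chr19:37376351-37376380, plus strand): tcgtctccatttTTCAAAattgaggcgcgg
Kif15 (chr9:122951050-122951079, plus strand): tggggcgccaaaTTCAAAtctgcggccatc
Kif22 (chr7:127042420-127042449, minus strand): gggccccggtaaTTCAAAagagagaagcgg
Kif23 (chr9:61946780-61946809, minus strand): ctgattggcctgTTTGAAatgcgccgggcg
Kifc1 (chr17:33890615-33890644, minus strand): cggaggttgaaaTTCAAAagtggcgggtgt
Kif2c (chr4:117178858-117178887, minus strand): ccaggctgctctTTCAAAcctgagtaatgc
Kif14 (chr1:136467608-136467637, plus strand): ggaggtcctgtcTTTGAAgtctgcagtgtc

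In Kif11, Kif15, Kif22, Kif23 and Kifc1 the hexamer began between base -19 and base 3 from the start site. In Kif2c and Kif14 it lay farther upstream, at bases -103 and -228, but the RefSeq starts of these genes lie 3867 and 1505 bases inside the genes as annotated by GENCODE. With starts within 500 bases of the GENCODE gene start alone, a limit chosen after seeing the data, the hexamer was present in 7 of 8 mitotic promoters (87.5%), 0 of 11 cargo-carrying promoters and 1 of 9 of the others (11.1%). Kif18a was the mitotic gene without a match in this window. Kif20a had no entry.

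The mRNA levels of the mitotic kinesins were low in both groups. Kif23, a subunit of the complex that organises the midzone in cytokinesis, was at 1.02, 0.813 and 0.591 FPKM in PND and at 0.819, 0.717 and 0.853 FPKM in CON. Kif11, which pushes spindle poles apart, was at 0.611 ± 0.0194 FPKM in PND and 0.542 ± 0.205 in CON. Kif15, which assists Kif11 in the spindle, was at 0.223 ± 0.0712 and 0.192 ± 0.0120 FPKM, and Kif18a, which aligns chromosomes, at 0.240 ± 0.0340 and 0.292 ± 0.0973 FPKM. Of the 6 mitotic kinesins tested, 0 had an unadjusted p below 0.05, and 3 had a log2 fold change above 0 and 3 below. Their median log2 fold change was 0.06, but it was -0.02 with quantile normalization and -0.16 without the filter on low values. The 95% interval of 3 of the 6 lay within a 2-fold change, against 15 of 16 in the cargo-carrying class. Over all genes tested it did so in 11180 of 18185, and the part of mRNA level in this contrast was not tested. A 2-fold change lay inside the intervals of Kif4, Kif18a and Kif20b.

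The other 5 mitotic kinesins were below the filter and were not tested. Kif20a, which acts in cytokinesis, held an estimated 3, 0 and 2 fragments in PND and 1, 6 and 1 in CON, and it shares 1271 exon bases with Cdc23 on the opposite strand. Kif14, also of cytokinesis, held 4, 2 and 8 fragments in PND and 8, 7 and 3 in CON. Kif22, a motor of chromosome arms, held 1, 0 and 3 against 0, 0 and 2. Kifc1, which focuses spindle poles, held 1, 4 and 3 against 3, 7 and 2, and about 730 bases of its transcripts are shared with its near-identical copy Kifc5b, so its level is uncertain. Kif2c, a microtubule depolymerase of the centromere, held 1 fragment in CON replicate 2 and was listed at 0 in the other 5 samples. No fold change is given for these genes, whose levels lay near a floor of 3 fragments.

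Mitotic genes outside the 38 members were read beside them. Among these, Cenpe (0.380 ± 0.111 FPKM in PND, 0.418 ± 0.143 in CON) encodes a kinesin motor whose symbol the rule does not match. Of 20 listed, 19 were in the files and 14 were tested, and 0 of these passed the cut-off or had an unadjusted p below 0.05. Their median log2 fold change was -0.08, with a sign that changed among the alternative settings. The 3 with the highest mean were Incenp, Bub1b and Racgap1, the last of which is the partner of Kif23. Incenp was at 3.64 ± 0.627 FPKM in PND and 3.49 ± 0.551 FPKM in CON, Bub1b at 0.90 ± 0.236 and 1.005 ± 0.506, and Racgap1 at 0.918 ± 0.129 and 0.785 ± 0.148. The proliferation marker Mki67 was at 0.306 ± 0.0656 against 0.359 ± 0.0859 FPKM. In bulk tissue, fewer cells of a type and less RNA per cell cannot be told apart.

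Several of the remaining kinesins work in cilia. Kif27 averaged 3.40 ± 0.435 FPKM in PND against 3.94 ± 1.19 in CON, and Kif9 had 0.983 ± 0.136 and 1.27 ± 0.226 FPKM (log2 fold change -0.34, SE 0.24, limma, unadjusted p 0.205). Kif6 was at 0.792 ± 0.207 and 0.672 ± 0.101 FPKM and Kif19a, which sets the length of motile cilia, at 0.125 ± 0.0818 and 0.0788 ± 0.0398 FPKM. Kif7, a regulator of Hedgehog signalling in the primary cilium, was at 0.253 ± 0.0883 and 0.275 ± 0.114 FPKM, and Kif24, which acts at the base of the cilium, at 0.175 ± 0.0187 and 0.241 ± 0.134 FPKM. The summed level of the ependymal and motile cilia markers overlapped between the groups, from 7.22 to 9.52 FPKM in PND and from 8.30 to 12.2 FPKM in CON. Among the genes without a ciliary role, Kif26b had 1.59 ± 0.326 against 1.31 ± 0.253 FPKM. Kif26a had 0.277 ± 0.121 against 0.269 ± 0.167 FPKM, and Kifc3, a motor of cell junctions that moves towards the minus end, 2.10 ± 0.898 against 2.12 ± 1.41 FPKM. Kif26b and Kif7 share 909 and 877 exon bases with antisense genes, and stretches of Kif24 recur in other genes, so these levels are uncertain. Kif28 was not tested, with an estimated 0, 0 and 6 fragments in PND and 2, 0 and 1 in CON. Of the 10 tested genes in neither class, 0 had an unadjusted p below 0.05.

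The spread between samples of the same group followed the GC content of the transcripts among the more abundant kinesins. Kifc2, with a GC content of 59.5%, was at 28.7, 18.1 and 40.9 FPKM in PND and at 11.3, 41.9 and 27.0 FPKM in CON. CON replicate 2 was thus 3.71-fold above CON replicate 1, and PND replicate 3 was 2.26-fold above PND replicate 2. Kif5b, with a GC content of 41.1%, ran the other way, at 57.9, 69.9 and 47.7 FPKM in PND and at 66.1, 51.5 and 68.7 FPKM in CON. Kif1a, at 55.1%, was at 86.3, 71.4 and 98.9 FPKM in PND and at 61.6, 110 and 81.2 FPKM in CON. Of the 16 cargo-carrying genes, 10 had their lowest value in CON replicate 1 and 10 their highest in CON replicate 2.

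Across the 21 members with a mean of at least 1 FPKM, which are not independent replicates and share the 6 libraries, the deviation of a sample from the gene mean had a Spearman rho with GC content of -0.87 in CON replicate 1 and 0.76 in CON replicate 2. It was 0.84 in PND replicate 3 and -0.61 in PND replicate 2, so the relation ran in opposite directions within both groups. It was 0.43 in PND replicate 1 and -0.38 in CON replicate 3. Across all 32 tested members it was closer to 0, at -0.80 and 0.54 in CON replicates 1 and 2, -0.12 in CON replicate 3, and 0.22, -0.42 and 0.65 in PND replicates 1 to 3. When each sample was corrected for its relation with GC content over all genes, the median within-group SD of the cargo-carrying genes went from 0.22 to 0.12 on the log2 scale, and it was smaller in 15 of the 16. That of Kif1a went from 0.34 to 0.06, and that of Kif5a from 0.29 to 0.12. The SD of Kif21a, with a GC content of 47.1%, was 0.04 before and 0.06 after. For the 6 mitotic genes, which lay between 38.2% and 48.1% GC, the median SD was 0.26 before and 0.29 after. Before the correction the 95% interval lay within a 2-fold change in 23 of the 32 tested members, beside 11180 of all 18185 genes tested. After it, 0 members passed the cut-off and this held for 28 of the 32, with no count taken over all genes. The interval of Kif1a then ran from 0.869-fold to 1.12-fold, that of Kif5a from 0.832-fold to 1.15-fold, and that of Kifc2 from 0.752-fold to 1.62-fold.

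**Figure D4:**
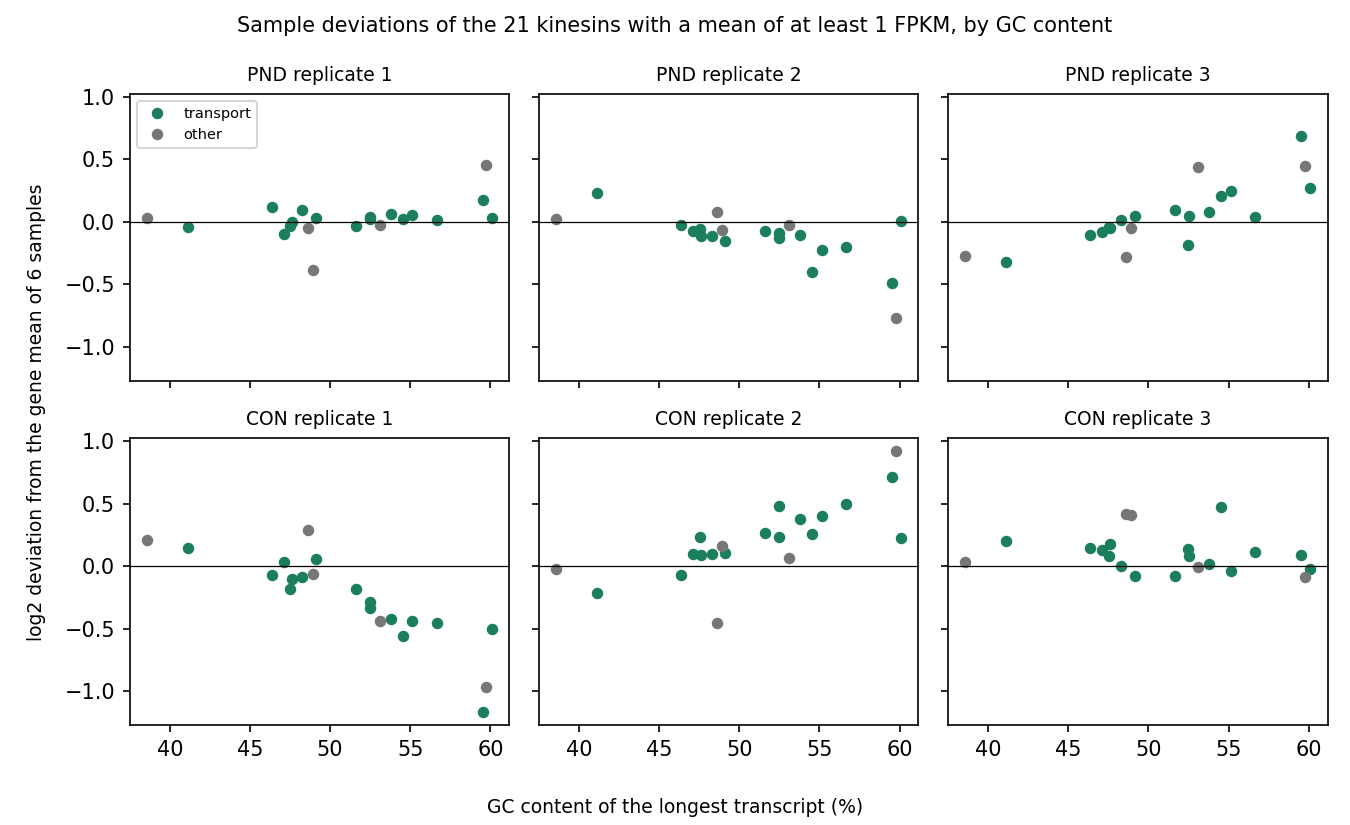
Log2 deviation of each sample from the gene mean, on log2(FPKM + 0.1), against the GC content of the longest transcript in percent, for the 21 kinesins with a mean of at least 1 FPKM (16 transport in green, 5 other in grey). GC-rich kinesins lie low in CON replicate 1 and PND replicate 2 and high in CON replicate 2 and PND replicate 3.

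The partners of the motors were read from lists by role. Of 22 tested genes for kinesin light chains and cargo adaptors, 0 passed the cut-off or had an unadjusted p below 0.05, and their median log2 fold change was 0.04. Kifap3, the subunit that links the Kif3 motor to cargo, was at 101 ± 3.05 FPKM in PND and 102 ± 3.94 FPKM in CON. Clstn1, a vesicle protein bound by kinesin light chains, had 83.2 ± 14.0 and 81.9 ± 32.4 FPKM, and Arl8b, which couples lysosomes to kinesin, 63.7 ± 1.89 and 67.5 ± 3.52 FPKM. Of 26 genes of cytoplasmic dynein, dynactin and their regulators, 0 passed the cut-off or had an unadjusted p below 0.05, with a median log2 fold change of -0.02. The values ran from -1.81 to 0.36. The lowest were Dynlrb2 (-1.81, SE 1.18, limma, unadjusted p 0.165), which averaged 0.543 FPKM, and Dynll2 (-0.97, SE 0.57, unadjusted p 0.130). Dynll2 was at 14.2, 12.2 and 61.3 FPKM in PND and at 32.7, 48.6 and 51.1 FPKM in CON. Dynlt3, Dync1li2 and Dync1h1, the 3 highest, had 122 ± 15.9, 98.1 ± 1.55 and 63.0 ± 8.01 FPKM in PND. In CON they had 126 ± 14.7, 102 ± 3.24 and 66.5 ± 17.1 FPKM. Of 19 tubulins and microtubule-associated proteins, 0 passed the cut-off and 1 had an unadjusted p below 0.05, with a median log2 fold change of 0.10 that was -0.14 without CON replicate 1 and 0.29 without CON replicate 2. That gene was Stmn1, which sequesters tubulin, at 47.3, 57.6 and 42.2 FPKM in PND and at 72.3, 72.0 and 66.6 FPKM in CON (log2 fold change -0.53, SE 0.13, limma, unadjusted p 0.00434, adjusted p 0.9999). The 3 highest of this list, Map1b, Map1a and Map2, had unadjusted p-values above 0.05, and Map1a was at 15.4 FPKM in CON replicate 1 and between 104 and 128 FPKM in the other samples.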

How the data were processed

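The libraries were depleted of ribosomal RNA and sequenced by the authors, who filtered the reads with Seqtk, aligned them with HISAT2, counted fragments per gene with StringTie, scaled them by TMM and deposited FPKM for 1 sample per file. Genome build, annotation and strand use were not given in the methods, and the labels list Bowtie 0.12.2 and the builds mm8 and mm9 without a role. The authors' gene models may therefore differ from those used here. Symbols came from a gene name table, and coordinates, exon lengths and GC content of the longest transcript from GENCODE M21 on GRCm38. PND was compared with CON by limma 3.58.1 in R 4.3.3 (lmFit, then eBayes with trend) on log2(FPKM + 0.1) for the 18185 genes that averaged 0.1 FPKM or more, with Benjamini-Hochberg adjustment over all of them. Fold changes are on this scale, which understates changes of low genes. GC correction subtracted a loess curve (span 0.3) of each sample's deviations on GC content. Depth was taken as the value that put most low genes at 1 fragment, and 41.6% to 44.7% of low values then lay within 0.05 of a whole number. Fragments of low members are the smallest whole numbers, within 0.15, in the ratio of depth-scaled FPKM. They do not use exon length and are estimates, and the floor covers counting error only. The 95% intervals are those of limma. They rest on the spread between samples, with each gene's variance drawn by eBayes towards that of genes with like levels. The fit was tried on simulated data with changes larger than those of the kinesins. These data had no GC-linked differences between samples, so the trial does not show how well changes of the kinesins would be found.

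The replicate numbers come from the sample titles. Named were all cargo-carrying kinesins, all other members with a mean of at least 0.1 FPKM, members with an unadjusted p below 0.05 in a fit that kept all samples, and the 3 highest genes of a partner list with those past the cut-off. Kif20a, Kif14, Kif22, Kifc1, Kif2c and Kif28 were given by their fragments. Mki67, Stmn1, Ttr, Gfap, Aqp4, P2ry12, Opalin, Ly6c1, Clic6, Tek, Slc1a2, Enpp2, Cenpe, Dynlrb2 and Dynll2 were named after their values were seen. The members and lists were chosen with earlier results of these data known. The samples of a group are from different mice. The p-values weigh the spread between them, moderated by limma towards that of genes with like levels.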

Additional observations from a re-analysis of the deposited data

How the results depend on the processing

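The 16 alternative fits gave 0 kinesins past the cut-off, as did an adjusted p below 0.05 and an unadjusted p below 0.05 in the reported fit. Among 501 values of single kinesins under these fits, 3 had an unadjusted p below 0.05 in limma. These were Kif20b (0.0215) and Kif4 (0.0315) without an intensity trend and Kif13a (0.0449) without CON replicate 1, and the smallest adjusted p was 0.828. The sign differed from the reported one in 53 of the 501, and 12 of the 32 tested kinesins kept their sign in every fit. The log2 fold change of Kif20b ranged from -0.75 to -0.24, that of Kif21a from -0.20 to -0.15 and that of Kif4 from 0.21 to 0.83. Over all genes, 241 passed the cut-off, against 25 after adding 1 FPKM before the log, 59 among genes averaging 1 FPKM or more, 569 with no fold threshold and 2 with an adjusted p below 0.05. The count ranged from 240 to 402 when a sample was left out, the highest without CON replicate 2. Of the 241 genes 153 were higher and 88 lower in PND, against 124 and 116 with quantile normalization, 115 and 125 without PND replicate 3 and 297 and 105 without CON replicate 2.

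The deviations of same-numbered samples correlated at -0.05, -0.45 and 0.03 for replicates 1 to 3. These values cannot show what such samples share, and whether they share more than a number was not tested. With the replicate block 226 genes and 0 kinesins passed the cut-off. With GC correction and the block, 1 dynein gene passed, against 0.

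The median log2 fold change of the mitotic kinesins was 0.06 as reported, -0.16 without a filter and -0.024 with quantile normalization. No mitotic kinesin averaged 1 FPKM, so that filter gave no value. That of the mitotic genes outside the members was -0.08 as reported, 0.039 without a filter and 0.057 among genes averaging 1 FPKM or more. When a sample was left out it ranged from -0.119 to 0.052, that of astrocyte markers from -0.027 to 0.124 and that of endothelial markers from -0.090 to 0.340. The sign also changed among these fits for the cargo-carrying kinesins (-0.173 to 0.025), the mitotic kinesins (-0.0007 to 0.10) and the other kinesins (-0.135 to 0.131). It changed too for the microtubule list (-0.140 to 0.293), adaptors (-0.046 to 0.108), dynein genes (-0.042 to 0.0035), neuron markers (-0.029 to 0.042), microglia markers (-0.090 to 0.228) and oligodendrocyte precursor markers (-0.134 to 0.183). In those fits the number past the cut-off ranged from 0 to 1 in the dynein, mitotic, oligodendrocyte, microglia and choroid plexus lists and from 0 to 2 in the ependymal list. The cause of these moves was not tested.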
